A study of Mus musculus with 30 samples.

Results

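The genes described here encode 10 transcription factors that bind DNA beside IRF4 or belong to the families of its partners. They are the AP-1 proteins of the basic leucine zipper (bZIP) class Batf, Batf2, Batf3, Jun, Junb, Jund, Fos and Fosl2, and the ETS proteins Spi1 (PU.1) and Spib. They were chosen by name and are 10 of the 11263 genes tested. RNA came from bone marrow-derived dendritic cells (BMDCs) of C57BL/6 mice, antigen-presenting cells grown in culture and selected with beads for CD11c. Both genotypes carried a CD11c-Cre transgene, in which the CD11c promoter drives the Cre recombinase. Control cells carried it alone, and knockout (KO) cells also carried loxP-flanked (floxed) Irf4 on both alleles, which Cre deletes in cells that express CD11c. Each genotype was left without stimulus or exposed for 6 or 24 h to lipopolysaccharide (LPS), a bacterial cell wall component that TLR4 senses. This made 6 groups of 5 biological replicates, and the question here is how these partner genes differ between genotypes and over the LPS course.

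IRF4 binds its own DNA site only weakly and joins a partner to bind well. With PU.1 or SPIB it sits on composite ETS-IRF elements (EICE), and with a BATF-JUN pair on composite AP-1-IRF elements (AICE). AP-1 is a dimer of a JUN protein with another JUN, a FOS protein or a BATF protein, and BATF proteins lack the activation domain of FOS. In dendritic cells PU.1 is a general myeloid factor, BATF3 is required for the cross-presenting type cDC1, and SPIB is known from plasmacytoid dendritic cells and B cells.

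Each of the 30 two-colour arrays set Cy5-labelled sample RNA against one Cy3-labelled universal mouse reference, so a level below is a log2 ratio of sample to reference. Median Cy5 brightness was 100 to 150 per array, and 18465 to 27230 of 41174 probes were well above background. The labels do not say whether replicates are mice or cultures, and every p-value here rests on the spread among these samples, which may be partly technical. Irf4 itself, read by 1 probe of unknown place relative to the deletion, was lower in KO cells by 2.90, 2.42 and 2.17 on the log2 scale at 0, 6 and 24 h (limma, SE 0.27; adjusted p 3.61e-08, 8.83e-07 and 2.7e-06). The arrays labelled control 6 h replicate 3 and control 24 h replicate 2 share a slide scanned on a later day, and each correlated best with an unstimulated control array. Replicates 4 and 5 differed from replicates 1 to 3 in one direction in all 6 groups for 8 of the 10 members and for 6170 of the 11263 genes (54.8%). No slide held both genotypes at one treatment, so no KO difference could be taken within a slide. Of the dendritic cell markers, Itgax, which encodes CD11c, was well above background on 30 of 30 arrays, Zbtb46 on 30 and Flt3 on 14.

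The promoters of 4 members whose levels differed between genotypes or with LPS are printed to show what lies before their start sites. The RefSeq promoter table used here (GRCm38.p6) matched 8 of the 10 members, and the 250 bases before each start site were searched on both strands for 10 motifs. Entries for Batf2 and Spi1 were not used here. Batf lies at chr12:85686470-85686719 (plus strand), Batf3 at chr1:191098164-191098413 (plus), Jun at chr4:95052223-95052472 (minus) and Spib at chr7:44532072-44532321 (minus). Capitals mark the matches: in Batf part of a cyclic AMP response element (TGACGT), in Batf3 a STAT site (GAS, TTCNNNGAA) and a PU box (GAGGAA), in Jun a CRE-like AP-1 site (TGACNTCA), and in Spib 2 kappa-B sites.
Batf: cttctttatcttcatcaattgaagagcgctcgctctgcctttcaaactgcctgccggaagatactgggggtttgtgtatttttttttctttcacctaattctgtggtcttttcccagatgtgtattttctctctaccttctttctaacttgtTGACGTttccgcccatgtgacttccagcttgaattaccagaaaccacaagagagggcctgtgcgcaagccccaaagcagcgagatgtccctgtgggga
Batf3: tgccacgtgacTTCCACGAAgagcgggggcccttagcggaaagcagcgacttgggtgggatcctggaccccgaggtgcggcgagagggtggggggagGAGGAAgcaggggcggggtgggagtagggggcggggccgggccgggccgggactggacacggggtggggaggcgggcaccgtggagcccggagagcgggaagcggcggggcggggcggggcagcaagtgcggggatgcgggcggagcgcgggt
Jun: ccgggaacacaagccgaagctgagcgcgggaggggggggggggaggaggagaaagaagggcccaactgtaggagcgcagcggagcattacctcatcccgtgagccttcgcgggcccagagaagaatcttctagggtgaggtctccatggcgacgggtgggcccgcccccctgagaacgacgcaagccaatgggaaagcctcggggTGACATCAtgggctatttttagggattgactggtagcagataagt
Spib: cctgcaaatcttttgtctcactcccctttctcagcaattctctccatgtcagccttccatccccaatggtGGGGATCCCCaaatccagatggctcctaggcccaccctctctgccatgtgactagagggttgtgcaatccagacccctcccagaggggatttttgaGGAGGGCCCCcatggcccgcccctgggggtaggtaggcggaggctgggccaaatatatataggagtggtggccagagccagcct
These motifs are common: of 32851 promoters of the same length 6.47% held TGACGT, 7.02% the GAS letters, 23.3% the PU box, 7.49% TGACNTCA and 7.25% a kappa-B site. TGACGT overlaps TGACNTCA where the latter has G at the N. The letters of the simple AP-1 site (TGANTCA, 6.75%), the EICE (GGAA, any 2 bases, GAAA, 2.3%) and both AICE forms were in none of the 8 windows. The AICE forms, GAAA directly before TGANTCA (0.1%) and TTTC with any 4 bases before TGANTCA (0.0974%), contain the simple site. An interferon response core (GAAA, any 2 bases, GAAA, 2.98%) was found in Fosl2, beside overlapping kappa-B matches, and Fos held a TGACGT and a kappa-B match, while Junb and Jund held none of the 10 motifs. A match is a run of letters, not a shown binding site.

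**Figure D1:**
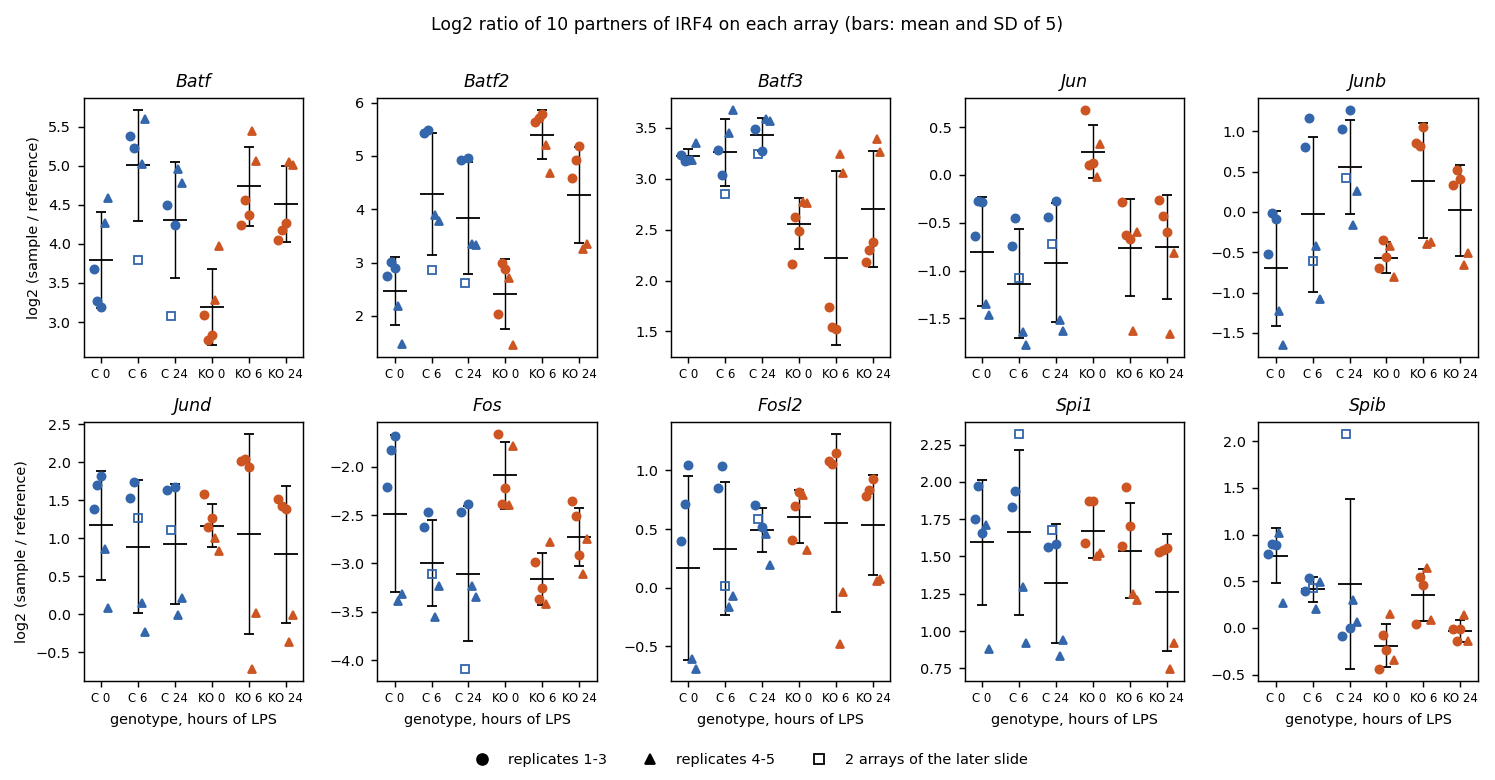
Log2 ratio of sample to reference (y axis) of the 10 genes on each of the 30 arrays, by genotype (C, control; KO) and hours of LPS (x axis); black bars are the mean and SD of 5 arrays, circles replicates 1 to 3, triangles replicates 4 and 5, and open squares the 2 arrays of the later slide. Batf and Batf2 lie higher after LPS, all 5 Jun values of unstimulated KO cells (-0.02 to 0.68) lie above the control values, and the open square of Spib at control 24 h (2.08) stands apart.

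Batf, which pairs with a JUN protein to recruit IRF4, rose with LPS in both genotypes. In KO cells its log2 ratios were 3.09, 2.77, 2.84, 3.28 and 3.98 (replicates 1 to 5) without stimulus. They were 4.24, 4.56, 4.37, 5.44 and 5.07 at 6 h and 4.05, 4.17, 4.26, 5.05 and 5.02 at 24 h. All stimulated KO arrays lay above all unstimulated ones, by 1.54 at 6 h (SE 0.36, 2.92-fold, adjusted p = 0.00214) and by 1.32 at 24 h (SE 0.36, 2.50-fold, adjusted p = 0.0116, limma). Of the 10 members 4 were called in KO cells at 6 h and 3 at 24 h, where 26.6% and 18.1% of all genes were called (adjusted p under 0.05). On the slide that held 3 unstimulated arrays (replicates 3 to 5) and 1 array of 6 h (replicate 1) the KO difference was 0.87.

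Control cells had Batf values of 3.68, 3.26, 3.19, 4.26 and 4.58 without stimulus and 5.38, 5.23, 3.79, 5.02 and 5.60 at 6 h, with only the later-slide array (3.79) inside the unstimulated range. The rise at 6 h was 1.21 (SE 0.36, 2.31-fold, adjusted p = 0.0284), 1.51 without the 2 later-slide arrays (adjusted p = 0.000473) and 0.88 on the slide that held 2 arrays of each group. On that slide the unstimulated arrays were replicates 4 and 5 and the 6 h arrays replicates 1 and 2. Unstimulated replicates 4 and 5 lay higher than replicates 1 to 3 by 1.05. At 24 h the values were 4.49, 3.07, 4.24, 4.96 and 4.78, overlapping the unstimulated ones, and the difference of 0.51 (SE 0.36) did not pass the test (adjusted p = 0.40). Leaving out the later-slide arrays gave 0.82 at 24 h (adjusted p = 0.0579), also not called. Leaving out unstimulated replicate 1, 2 or 3, or 6 h replicate 1, 2, 4 or 5, ended the 6 h call, with differences of 1.06 to 1.20 and adjusted p of 0.0527 to 0.0884. With the arrays compared alone in the fit its adjusted p was 0.111. Among the 10 members 2 were called in control cells at 6 h and 1 at 24 h, against 11.6% and 12.3% of all genes.

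KO and control cells had overlapping Batf levels under each treatment. KO minus control was -0.61, -0.27 and 0.20 at 0, 6 and 24 h (SE 0.36; adjusted p 0.289, 0.703 and 0.786). With the 2 later-slide arrays left out it was -0.57 at 6 h and -0.11 at 24 h (adjusted p 0.234 and 0.882), a change of sign at 24 h. The 24 h difference was then -0.20 within replicates 1 to 3. Within replicates 4 and 5, which hold no later-slide array, it was 0.16, without overlap. Within replicates 1 to 3 the unstimulated difference was -0.48 and within replicates 4 and 5 it was -0.79, lower in KO cells in both sets. The highest mean, 5.01 at control 6 h, and the lowest, 3.19 in unstimulated KO cells, were joined by steps of 0.20 to 0.61, none beyond the spread of its neighbours.

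Batf2, an interferon-induced relative of Batf, had the widest LPS response of the 10. In KO cells it stood at 2.03, 3.00, 2.88, 2.71 and 1.45 without stimulus, at 5.64, 5.71, 5.78, 5.20 and 4.67 after 6 h, and at 4.59, 4.92, 5.19, 3.25 and 3.35 after 24 h. Every stimulated array was above every unstimulated one. The rises were 2.99 (SE 0.51, 7.94-fold, adjusted p = 7.41e-05) at 6 h and 1.85 (SE 0.51, 3.60-fold, adjusted p = 0.0116) at 24 h. The 6 h rise was called under each of 47 other settings, with values of 2.56 to 3.86, and was 3.30 on the shared slide. The difference of -1.14 from 6 to 24 h did not pass the test (adjusted p = 0.181).

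In control cells Batf2 was at 2.75, 3.01, 2.90, 2.19 and 1.47 unstimulated, 5.42, 5.49, 2.86, 3.89 and 3.78 at 6 h, and 4.93, 2.61, 4.96, 3.35 and 3.33 at 24 h. The later-slide arrays, 2.86 and 2.61, lay within the unstimulated range, and the other 8 stimulated arrays lay above it. The 6 h rise was 1.82 (SE 0.51, 3.53-fold, adjusted p = 0.0181), or 2.18 without those 2 arrays (adjusted p = 0.00133). The 24 h rise was 1.37 (adjusted p = 0.076) with them and 1.68 without them (adjusted p = 0.015). The 6 h call was lost without unstimulated replicate 5 (1.57, adjusted p = 0.0513), 6 h replicate 1 (1.54, 0.0803) or 6 h replicate 2 (1.52, 0.0805), with Cy5 alone (1.93, 0.0582) and with median centring (1.71, 0.0817). On the slide with 2 arrays of each group the difference was 3.62, where the unstimulated arrays were replicates 4 and 5 and the stimulated ones replicates 1 and 2.

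Batf2 was higher in KO than in control cells at 6 h by 1.12 (SE 0.51), which did not pass the test (adjusted p = 0.163). The difference was 1.12 within replicates 1 to 3 and 1.10 within replicates 4 and 5, but 0.26 within replicates 1 to 3 when the later-slide array was left out. In the other treatments it was -0.05 at 0 h and 0.43 at 24 h.

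Batf3, the bZIP factor required for cross-presenting dendritic cells, was lower in KO cells at 6 h. Control arrays read 3.28, 3.04, 2.85, 3.45 and 3.68, and KO arrays 1.74, 1.55, 1.52, 3.24 and 3.06. KO replicates 1 to 3 lay far below every control array, whereas replicates 4 and 5 lay within the control range. The difference was -1.04 (SE 0.28, 2.05-fold, adjusted p = 0.0137), made up of -1.46 within replicates 1 to 3 and -0.41 within replicates 4 and 5. This was the 1 member called at 6 h, where 12.1% of all genes were. The call was lost without KO 6 h replicate 2 (-0.87, adjusted p = 0.0549) or replicate 3 (-0.86, 0.0567) and with the compared arrays alone in the fit (adjusted p = 0.131).

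Without stimulus Batf3 stood at 3.23, 3.17, 3.18, 3.18 and 3.35 in control cells and at 2.17, 2.62, 2.49, 2.77 and 2.76 in KO cells. The highest KO array (2.77) was under the lowest control array (3.17), yet the difference of -0.66 (SE 0.28) did not pass the test fitted on all arrays (adjusted p = 0.117). It passed in 5 other settings, among them the fit on the compared arrays alone (adjusted p = 0.00378) and the one with a term for replicates 4 and 5 (0.00981). Over all 47 other settings the difference ran from -1.99 to 1.39, with no value above 0 called. At 24 h the KO difference was -0.73 (adjusted p = 0.0799), -1.05 within replicates 1 to 3 and -0.25 within replicates 4 and 5, with no overlap within either set. It passed in 8 of 47 other settings, among them Cy5 alone (-1.83, adjusted p = 0.0196) and the term for replicates 4 and 5 (0.00509), the lowest of these adjusted p-values. Over the 47 the 24 h difference ran from -2.51 to 0.18, with no value above 0 called. LPS itself left Batf3 within 0.48 of its earlier mean in each step of either genotype, none of them called. In KO cells at 6 h replicates 1 to 3 lay lower by 0.82 than unstimulated ones while replicates 4 and 5 lay 0.39 higher, each without overlap.

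Cell type markers were compared between the genotypes as well. Of all genes 6.95% were called higher and 7.13% lower in unstimulated KO cells, and 6.23% and 5.88% at 6 h. In lists of 7 to 11 genes, counts of 1 or 2 lie close to these shares. Array means cover all genes of a list named on the array, also those that failed the background filter. These were 13 dendritic cell, 10 neutrophil and 10 macrophage markers. Of 11 measured dendritic cell markers 6 were lower and 1 higher in unstimulated KO cells, and the mean log2 ratio of the list ran from 2.35 to 2.50 over control and from 1.11 to 2.02 over KO arrays. At 6 h 4 were lower and 0 higher (2.09 to 2.75 against 1.97 to 2.47). Unstimulated means of the antigen presentation (MHC class II) genes Cd74, H2-Aa, H2-Eb1 and Ciita were 3.23, 5.32, 4.72 and 2.92 in control cells. In KO cells they were 1.46, 3.71, 3.20 and 0.99, and Zbtb46, Ccr7 and Dpp4 were also lower. H2-Ab1 was at 3.56 in control and 3.53 in KO cells, Xcr1 at 0.20 and -0.02, and Itgax at 4.01 and 4.41. Clec9a, well above background on 9 of 30 arrays, was at 0.30 and 1.85. Of 7 neutrophil markers 1 was lower without stimulus (0.99 to 1.94 against 0.40 to 1.27) and 3 were lower at 6 h (1.39 to 2.39 against 0.54 to 1.41). Elane, a marker of their precursors, was above background on 0 arrays. S100a8 and S100a9 were above it on 30 arrays, and Mpo and Ctsg, also of this list, on 29. Camp was above it on 23, Ltf on 17, Ngp and Prtn3 on 15 and Retnlg on 8. Of 10 macrophage markers 2 were higher in unstimulated KO cells (1.76 to 2.99 against 2.53 to 3.53) and 0 were called at 6 h. Their part in the member differences was not tested, and in bulk RNA fewer cells of a type and less RNA per cell cannot be told apart.

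Jun, the founding AP-1 subunit, was higher in unstimulated KO cells. The KO arrays read 0.68, 0.10, 0.12, -0.02 and 0.33 and the control arrays -0.64, -0.27, -0.28, -1.35 and -1.46, with no overlap. The difference was 1.04 (SE 0.32, 2.06-fold, adjusted p = 0.0275), 0.70 within replicates 1 to 3 and 1.56 within replicates 4 and 5. Jun and Spib were the 2 members called in this comparison, against 14.1% of all genes. Leaving out control replicate 4 (0.91, adjusted p = 0.0874) or 5 (0.88, 0.0904) or KO replicate 1 (0.93, 0.0861) or 5 (1.02, 0.0525) ended the call, as did median centring (1.09, 0.155). Of 16 measured other immediate-early genes, which rise when cells are handled, 0 were called in this comparison (limma). The mean of the 17 named on the array ran from -0.98 to -0.25 over control and from -0.59 to -0.47 over KO arrays.

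After LPS the KO level of Jun came down to that of control cells. KO arrays held -0.29, -0.63, -0.67, -1.63 and -0.60 at 6 h and -0.27, -0.43, -0.60, -1.66 and -0.82 at 24 h, all below the unstimulated ones. The falls were -1.01 (SE 0.32, 2.01-fold, adjusted p = 0.0202) and -0.997 (SE 0.32, adjusted p = 0.0299). At 6 and 24 h they were -0.83 and -0.73 within replicates 1 to 3, and -1.27 and -1.39 within replicates 4 and 5. KO 6 h replicate 4 and KO 24 h replicate 4 were lowest, and without them the falls were -0.79 (adjusted p = 0.08) and -0.77 (0.115). The 6 h call was lost also without unstimulated KO replicate 1 (-0.90, 0.0586), and the 24 h call without unstimulated replicate 1 (-0.89, 0.0849) or 5 (-0.98, 0.0527) or 24 h replicate 5 (-0.98, 0.0544). Median centring gave -1.30 (adjusted p = 0.0504) and -1.21 (0.101). On the shared slide the 6 h difference was -0.43.

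In control cells Jun ran from -1.78 to -0.45 at 6 h and from -1.63 to -0.27 at 24 h, across the unstimulated range, with differences of -0.34 and -0.12 that were not called. KO minus control was 0.38 at 6 h and 0.16 at 24 h (adjusted p 0.508 and 0.807). The response of KO cells minus that of control cells was -0.67 (SE 0.45) at 6 h and -0.88 (SE 0.45) at 24 h, with adjusted p of 0.819 and 0.476, so the difference between the genotypes' responses did not pass its own test. Unstimulated KO cells had the highest mean of Jun, 0.24, and were 1.00 above the next group, beyond the spread, while the other 5 means lay between -1.14 and -0.76.

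Junb, a JUN protein that pairs with BATF on composite elements, rose in control cells at 24 h. Unstimulated control arrays held -0.52, -0.02, -0.09, -1.22 and -1.65, and 24 h arrays 1.03, 0.41, 1.27, -0.17 and 0.26. Only 24 h replicate 4 fell inside the unstimulated range. The rise was 1.26 (SE 0.40, 2.40-fold, adjusted p = 0.0372), 1.11 within replicates 1 to 3 and 1.48 within replicates 4 and 5. Without unstimulated replicate 1 (1.31, adjusted p = 0.0585), 4 (1.13, 0.0924) or 5 (1.02, 0.11), or 24 h replicate 1 (1.14, 0.0961) or 3 (1.08, 0.105), it was no longer called, nor with the compared arrays alone (adjusted p = 0.0589). At 6 h the control values 0.80, 1.16, -0.60, -0.42 and -1.08 overlapped the unstimulated ones (0.67, adjusted p = 0.321).

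In KO cells Junb stood at -0.70, -0.34, -0.55, -0.42 and -0.81 without stimulus, at 0.85, 0.82, 1.05, -0.40 and -0.37 at 6 h, and at 0.33, 0.52, 0.41, -0.66 and -0.51 at 24 h. Replicates 1 to 3 lay above the unstimulated range at both times, and replicates 4 and 5 lay within it. The differences of 0.95 (adjusted p = 0.0786) and 0.58 (adjusted p = 0.339) were not called. Within replicates 1 to 3 the 6 h difference was 1.44, and within replicates 4 and 5 it was 0.23. KO minus control was 0.13, 0.42 and -0.54 at 0, 6 and 24 h, none called. The 2 Junb probes correlated at 0.99 over the 30 arrays.

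Jund, a JUN protein known for steady expression, was split by replicate more than by treatment. At KO 6 h its values were 2.02, 2.04, 1.94, -0.72 and 0.01, and at KO 24 h 1.52, 1.43, 1.38, -0.36 and -0.02. Group means lay between 0.79 and 1.17, with SDs of 0.29 to 1.31, and neighbouring means did not differ beyond their spread. KO minus control was 0.00 at 0 h, 0.17 at 6 h and -0.14 at 24 h (SE 0.52). None of the 12 comparisons called Jund.

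Fos, the partner of JUN proteins in classical AP-1, was lower after 6 h of LPS in KO cells. The KO arrays gave -1.66, -2.38, -2.23, -2.40 and -1.79 unstimulated and -2.98, -3.37, -3.25, -3.41 and -2.78 at 6 h, with no overlap. The fall was -1.07 (SE 0.32, 2.10-fold, adjusted p = 0.0128), -1.11 within replicates 1 to 3, -1.004 within replicates 4 and 5, and -0.85 on the shared slide. At 24 h the KO values were -2.35, -2.51, -2.91, -3.10 and -2.75, a difference of -0.63 that was not called (adjusted p = 0.174). Among the other immediate-early genes 5 of 16 rose and 3 fell in KO cells at 6 h, where 14.2% of all genes rose and 12.4% fell. Array means of the 17 named ones ran from -0.59 to -0.47 unstimulated and from -0.86 to -0.43 at 6 h. Their part in the fall of Fos was not tested.

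Control cells held Fos at -2.21, -1.83, -1.68, -3.39 and -3.31 without stimulus. At 6 h they gave -2.62, -2.47, -3.10, -3.56 and -3.23, and at 24 h -2.47, -4.09, -2.39, -3.23 and -3.34. Replicates 4 and 5 were already as low without stimulus as with it, and the differences of -0.51 and -0.62 were not called (adjusted p 0.35 and 0.218). Within replicates 1 to 3 they were -0.82 and -1.07, without overlap, or -0.63 and -0.52 without the later-slide arrays, and within replicates 4 and 5 they were -0.04 and 0.06. KO minus control for Fos was -0.18 within replicates 1 to 3 and 1.26 within replicates 4 and 5 in unstimulated cells, and 0.39 over all arrays (adjusted p = 0.453).

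Fosl2, the FOS-related protein FRA2, was called in none of the comparisons by its brighter probe. Its group means lay between 0.17 and 0.61. In unstimulated cells the control arrays read 0.40, 0.71, 1.05, -0.61 and -0.69 and the KO arrays 0.41, 0.70, 0.82, 0.79 and 0.32. The difference was -0.08 within replicates 1 to 3 and 1.21 within replicates 4 and 5. The dimmer of its 2 probes correlated with the brighter at 0.50, and it rose by 0.53 (SE 0.17) in KO cells at 6 h (adjusted p over probes 0.0239) where the brighter gave -0.05. The brighter probe had an SE of 0.33 there, and the difference between the 2 probes was not tested.

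Among the ETS partners, Spi1, which encodes PU.1, was called in none of the comparisons. Its 6 group means ran from 1.26 at KO 24 h to 1.67 in unstimulated KO cells, and no neighbours in that order differed beyond their spread. KO minus control was 0.08, -0.12 and -0.06 at 0, 6 and 24 h, each with an SE of 0.24 and adjusted p of 0.869, 0.808 and 0.908. The largest LPS difference, -0.41 in KO cells at 24 h, was not called (adjusted p = 0.251). It passed in 4 of 47 other settings, among them the term for replicates 4 and 5 (adjusted p = 0.0201) and the slide as a block (-2.41, 0.00671). KO arrays were lower at 24 h than unstimulated within replicates 1 to 3 (-0.24) and within replicates 4 and 5 (-0.68).

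Spib, the PU.1 relative that can replace it on composite elements, was lower in unstimulated KO cells. Control arrays read 0.79, 0.90, 0.89, 1.01 and 0.26, and KO arrays -0.44, -0.08, -0.24, 0.14 and -0.35, without overlap. The difference was -0.96 (SE 0.26, adjusted p = 0.0116), -1.11 within replicates 1 to 3 and -0.74 within replicates 4 and 5. It remained called without the 2 later-slide arrays (adjusted p = 2.02e-05) but not with Cy5 alone (-0.78, adjusted p = 0.0678). Spib was dim, well above background on 26 of 30 arrays and on 3 of the 5 unstimulated KO arrays. All 5 values entered the fit, those of replicates 1 and 5 not well above background, so no fold is given for this difference.

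Markers of the cell types known for Spib were measured beside it. Of 7 measured plasmacytoid dendritic cell markers 1 was higher and 0 were lower in unstimulated KO cells (6.95% and 7.13% of all genes). The mean of the 8 named on the array ran from 0.13 to 0.63 over control and from 0.22 to 0.58 over KO arrays. Siglech, a defining marker, was above background on 1 of 30 arrays. Of 7 measured B cell markers 0 were called (means of the 10 named, -1.24 to -1.18 against -1.47 to -1.18), and Pax5 was above background on 1 array. The part of the lower dendritic cell markers given above was not tested.

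At 6 h of LPS the Spib levels of both genotypes met. Control arrays read 0.40, 0.54, 0.43, 0.20 and 0.49 and KO arrays 0.04, 0.54, 0.45, 0.65 and 0.08, a difference of -0.06 (adjusted p = 0.926). At 24 h the control values were -0.09, 2.08, 0.00, 0.30 and 0.07 and the KO values -0.01, -0.15, -0.01, 0.14 and -0.14. The value 2.08 belongs to the later-slide array. With it, the change from unstimulated cells was -0.36 at 6 h and -0.30 at 24 h in control cells, neither called, and 0.54 (adjusted p = 0.122) and 0.16 in KO cells.

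Without the 2 later-slide arrays Spib fell in control cells at 24 h by -0.70 (SE 0.15, adjusted p = 0.00121) and rose in KO cells at 6 h by 0.54 (SE 0.14, adjusted p = 0.00378). The difference between the genotypes' responses, KO minus control, was then 0.91 (SE 0.20, adjusted p = 0.023) at 6 h and 0.86 (SE 0.20, adjusted p = 0.0252) at 24 h, where 1.27% and 1.78% of all genes were called. On all 30 arrays the same differences were 0.90 (SE 0.37, adjusted p = 0.453) and 0.46 (SE 0.37, adjusted p = 0.705). Leaving out control 24 h replicate 2 alone was enough for both calls. That array enters the 6 h difference only through the spread shared by all groups. The rise in KO cells and both differences of responses use the unstimulated KO values, well above background on 3 of 5 arrays.

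**Figure D2:**
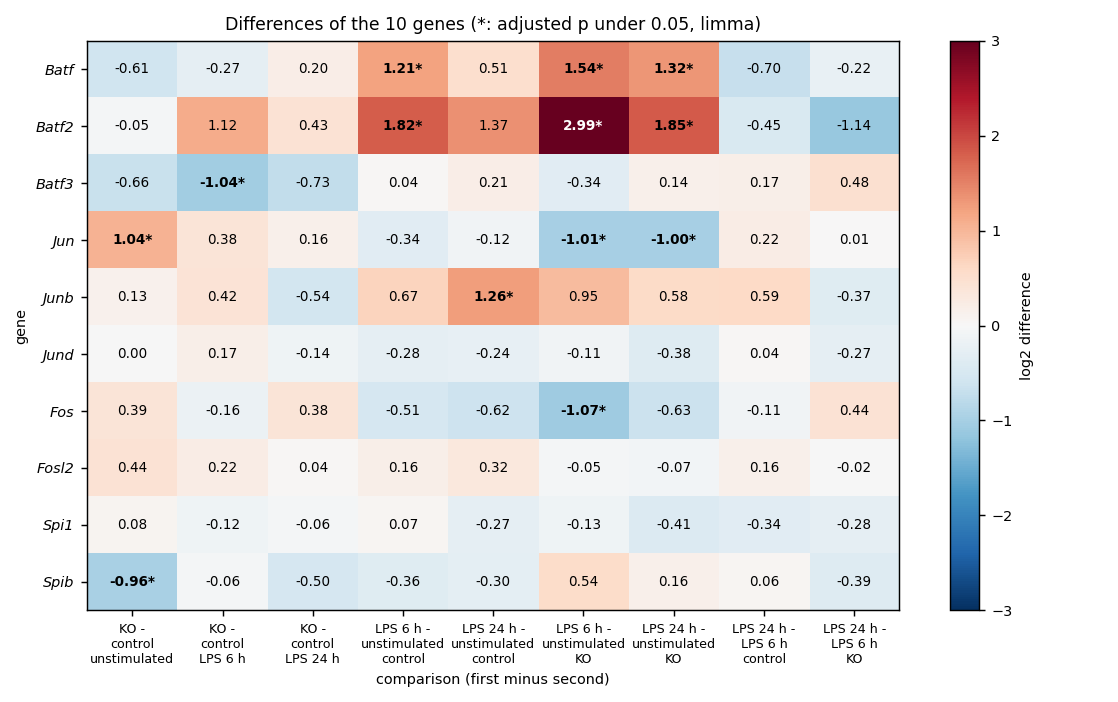
Log2 differences of the 10 genes (rows) in 9 comparisons (columns, first group minus second), 5 arrays a group, with the colour scale from -3 to 3 and an asterisk where the adjusted p was under 0.05. The calls lie mostly in the LPS columns, led by Batf2 in KO cells at 6 h (2.99), and the KO minus control columns hold 3 of them, Jun and Spib without stimulus and Batf3 at 6 h.

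Over the whole set, KO minus control at 24 h called 0 of the 10 members in limma, with 1 at an unadjusted p under 0.05, where 15.4% of all genes were called. From 6 to 24 h of LPS 0 members were called in control cells (0 unadjusted, 5.48% of all genes) and 0 in KO cells (1 unadjusted, 7.74%). The differences between the genotypes' responses called 0 members at 6 h (1 unadjusted, 0.435% of all genes), at 24 h (0 unadjusted, 0.879%) and in the change from 6 to 24 h (0 unadjusted, 0.107%). In the other comparisons 1 to 4 of 10 were called, counts too close to the shares of all genes to be a result about the members as a set. Groups did not overlap for 3 of 10 members between unstimulated KO and control cells (18.2% of all genes), 4 in KO cells at 6 h (24.9%) and 3 at 24 h (21.2%). They overlapped for all 10 in the KO comparisons at 6 h (9.26% of all genes apart) and 24 h (12.2%), in control cells at 6 h (4.48%) and 24 h (9.94%), and from 6 to 24 h in control (4.03%) and KO cells (11.7%). The median KO difference of the 10 was 0.04, 0.06 and -0.01 at 0, 6 and 24 h, beside -0.04, -0.01 and -0.01 over all genes.

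**Figure D3:**
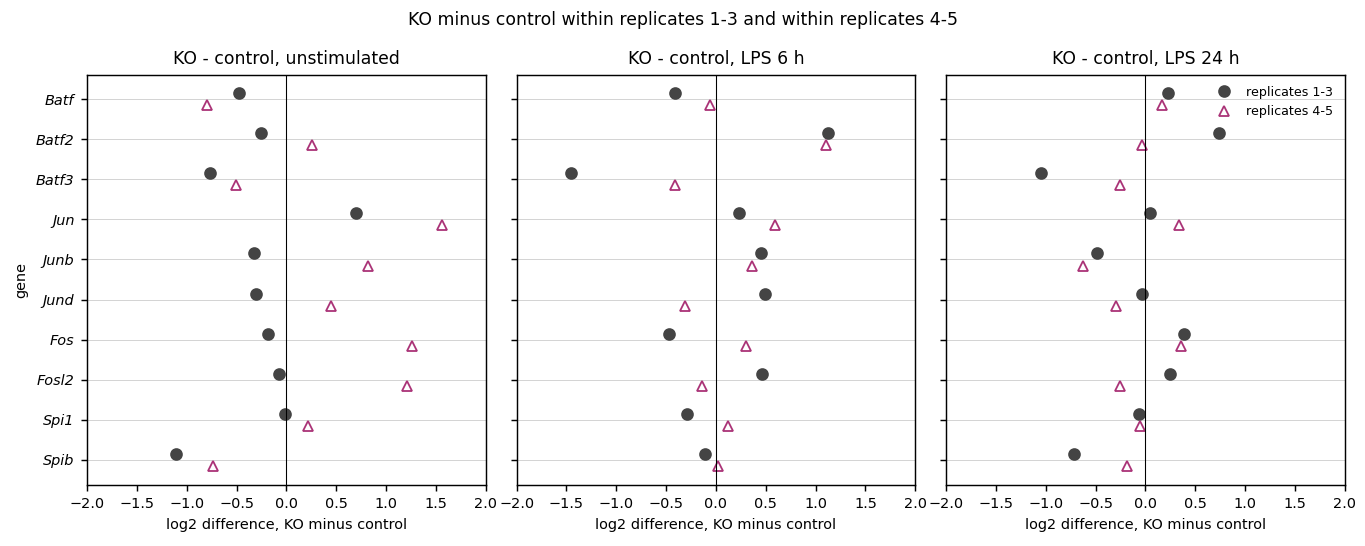
KO minus control in log2 units (x axis) of the 10 genes (y axis) in unstimulated cells and after 6 and 24 h of LPS, computed within replicates 1 to 3 (filled circles) and within replicates 4 and 5 (open triangles). Spib and Batf3 lie left of 0 and Jun right of 0 in both sets without stimulus, while Fos (-0.18 and 1.26), Fosl2 (-0.08 and 1.21) and Junb (-0.32 and 0.82) change side.

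In unstimulated cells Batf, Batf3, Jun and Spib kept one direction of the KO difference in both replicate sets, and the other 6 members changed sign between the sets. Junb went from -0.32 to 0.82 and Jund from -0.30 to 0.44. Whether the sets are batches is not given by the labels. In unstimulated KO cells the arrays did not fall into these sets: over the probes that passed the background filter replicate 4 correlated best with replicate 3 (r 0.987) and replicates 1 and 5 with each other (0.943). The set differences of unstimulated cells therefore mix arrays of both kinds on the KO side. Replicate 4 of unstimulated KO cells lay with replicates 2 and 3 for Jund (1.00 beside 1.14 and 1.27) and Fosl2 (0.79 beside 0.70 and 0.82), unlike replicate 4 of the other groups.

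Members also moved together over the arrays. Pearson's r over the 30 arrays, which share one reference, was 0.79 for Batf2 with Junb, for Jund with Fosl2 and for Jund with Spi1, and 0.77 for Jun with Fos. After removal of group means it was 0.84, 0.85, 0.83 and 0.73, and 0.89 for Junb with Fosl2. Batf3 ran against Jund at -0.61 (-0.86 within groups). With Irf4 itself the r was 0.64 for Batf3, 0.58 for Spib and -0.62 for Jun, and within groups 0.27, 0.46 and -0.32. The split between replicates 1 to 3 and 4 and 5 is shared by most of these genes.

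The genes most like each member by Pearson's r over the 30 arrays were Irgm2 (0.98), Ddx58 (0.98) and Parp14 (0.98) for Batf2. They were Ttc39b, Mul1 and Vta1 (each 0.95) for Batf, Atox1 (0.93) and Pmvk (0.91) for Batf3 beside an unnamed cDNA (0.95), and Gpr137b (0.96), Cdk9 (0.94) and Pnpla2 (0.93) for Jun. Rnf31 (0.93), Polm (0.93) and Dnajb6 (0.92) came closest to Junb, and Usp19 (0.96), Arf3 (0.95) and Eif5b (0.95) to Jund. The highest values were lower for Fos (Gprc5b, 0.85) and Spib (Il17re, 0.85), with Brd3 (0.93) for Fosl2 and Hnrnpa3 (0.90) for Spi1. Within groups these r were close by, for example 0.96 for Batf2 with Irgm2 and 0.93 for Batf with Ttc39b.

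Lists of related genes are set beside the share of all genes called in each direction. For KO minus control 6.95%, 6.23% and 6.97% of all genes were higher and 7.13%, 5.88% and 8.43% lower at 0, 6 and 24 h. With LPS 7.15% rose and 4.49% fell in control cells at 6 h, and 7.23% and 5.07% at 24 h. In KO cells 14.2% rose and 12.4% fell at 6 h, and 10.3% and 7.85% at 24 h.

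The other bZIP factors that were called between genotypes were higher in KO cells, with 1 exception. Of 27 measured ones 7 were higher and 0 lower without stimulus, 6 higher and 0 lower at 6 h, and 3 higher and 1 lower at 24 h, with medians of 0.44, 0.46 and 0.32. Ddit3, the stress factor CHOP, was higher by 1.59, 1.92 and 1.73 (SE 0.23; adjusted p 2.02e-05 at 0 h). Atf4, which drives Ddit3 in the integrated stress response, was higher by 0.86, 1.24 and 1.04 (SE 0.14). Bach1 (0.86) was called without stimulus and Cebpg (1.005) at 6 h, and Crem, a cyclic AMP-responsive factor, was lower at 24 h (-1.12, SE 0.34, adjusted p = 0.0242). In unstimulated cells 8 were higher and 2 lower once the 2 later-slide arrays were left out.

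With LPS, 2 of the bZIP factors rose and 4 fell in control cells at 6 h, and 1 rose and 2 fell at 24 h. In KO cells 4 rose and 6 fell at 6 h, and 1 rose and 4 fell at 24 h. At 6 h Nfe2 fell by -1.97 in control and -1.84 in KO cells (SE 0.40), and Cebpa by -1.86 in KO cells (SE 0.49). In control cells without the 2 later-slide arrays 4 rose and 6 fell at 6 h, and 2 rose and 3 fell at 24 h.

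Of 16 measured other ETS factors 1 was lower and 0 higher in unstimulated KO cells, 1 higher and 1 lower at 6 h, and 2 higher and 2 lower at 24 h, with medians of -0.03, 0.12 and 0.00. The repressor Etv6 was lower by -0.74 at 0 h (SE 0.20, adjusted p = 0.00995) and by -0.95 at 24 h (adjusted p = 0.0012), and the repressor Etv3 by -1.25 at 6 h and -1.46 at 24 h (SE 0.30). Elk3 was higher by 0.99 at 6 h (SE 0.19) and Etv1 by 1.09 at 24 h (SE 0.17). With LPS, Etv6 rose by 1.13 in control and 1.33 in KO cells at 6 h, and Spic, the closest relative of Spi1 and Spib in the list, rose by 1.66 in control and 2.32 in KO cells at 24 h (SE 0.44). In KO cells 6 ETS factors rose and 1 fell at each time, and in control cells 1 rose and 1 fell at 6 h and 3 rose and 1 fell at 24 h. At 6 h 3 rose in control and 9 in KO cells when the 2 later-slide arrays were left out.

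**Figure D4:**
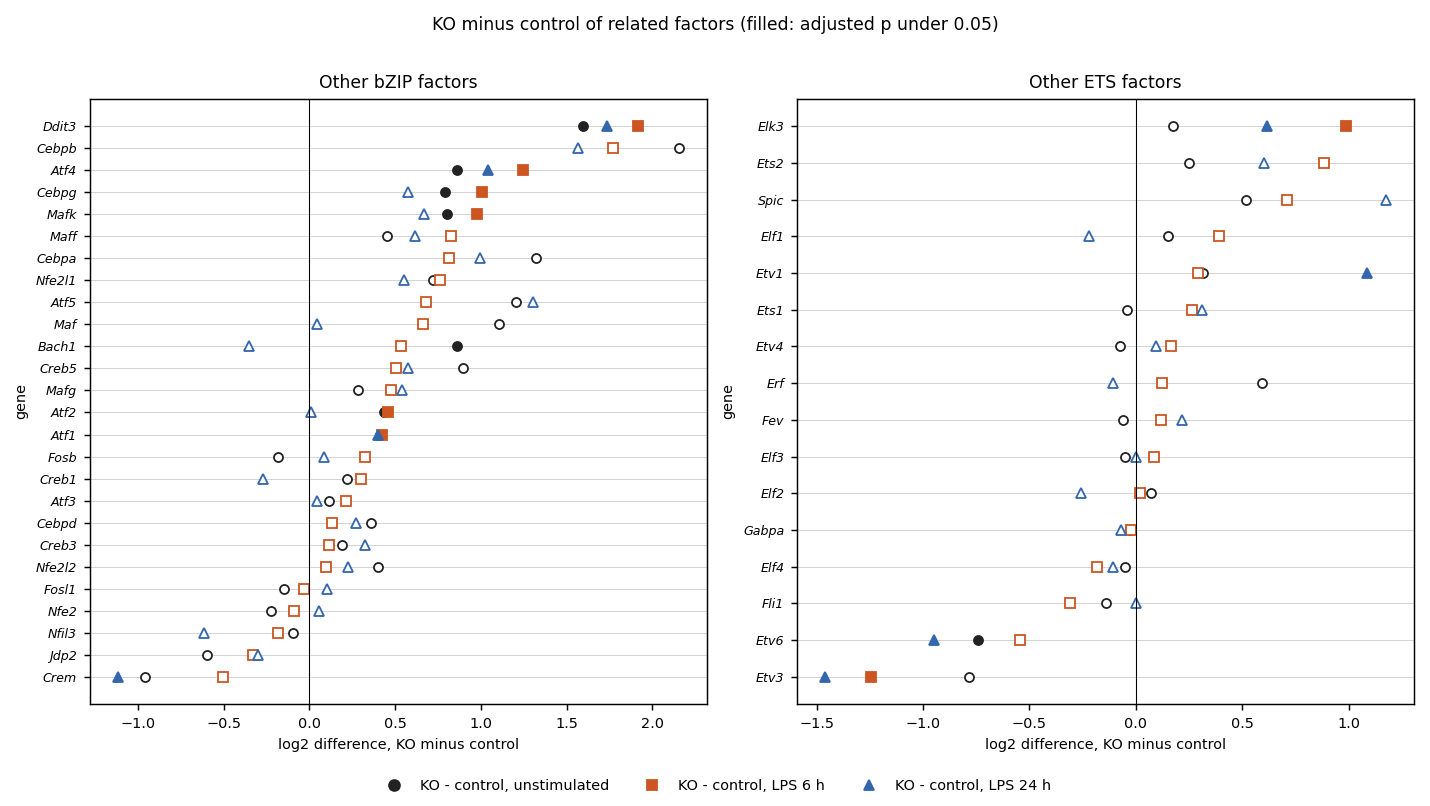
KO minus control in log2 units (x axis) of 26 other bZIP factors (left) and 16 other ETS factors (right), each gene a row sorted by its 6 h value, with circles for unstimulated cells, squares for 6 h and triangles for 24 h of LPS; filled symbols had an adjusted p under 0.05. Ddit3 and Atf4 are filled on the right side at all 3 times, and Etv3 (-1.25 at 6 h, -1.46 at 24 h) lies lowest of the ETS factors at both.

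Kinases and phosphatases that set AP-1 activity formed the next list. Of 23 measured ones 5 rose and 2 fell in control and 6 rose and 1 fell in KO cells at 6 h, and 3 rose and 0 fell in each genotype at 24 h. Map3k8, the kinase TPL2 downstream of TLR4, rose by 2.18 in control and 2.23 in KO cells at 6 h (SE 0.40). The phosphatase Dusp2 rose by 2.07 in control cells (SE 0.41). Between genotypes Mapk13, the kinase p38 delta, was lower in KO cells by -1.54, -1.51 and -1.74 (SE 0.39), and at 6 h the phosphatase Dusp4 was higher by 1.74 (SE 0.29) and the kinase Map3k5 by 1.71 (SE 0.33). Over this list 2 were lower and 0 higher without stimulus, 4 higher and 2 lower at 6 h, and 2 higher and 1 lower at 24 h, with medians of 0.14, 0.12 and 0.09. Without the 2 later-slide arrays the counts were 2 and 2, 3 and 4, and 1 and 2, and 6 rose in control and 5 in KO cells with 24 h of LPS.

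Of 25 measured textbook AP-1 targets 8 rose and 1 fell in control cells at 6 h and 5 rose and 0 fell at 24 h. In KO cells 11 rose and 2 fell at 6 h and 7 rose and 0 fell at 24 h. The cytokine Il6 rose by 4.17 in control (SE 1.04) and 8.32 in KO cells (SE 1.04) at 6 h, the control value being 5.81 without the 2 later-slide arrays, and Il1b by 4.03 and 4.48 (SE 0.91). Csf2, which encodes GM-CSF, was higher in KO cells at 6 h by 2.66 (SE 0.30), and the difference of the genotypes' responses was 2.66 (SE 0.42, adjusted p = 0.00242). Of the 25 targets only this 1 had a called difference of responses at 6 h (0.435% of all genes), so that of Il6 was not called. Without the 2 later-slide arrays 2 of the 25 were called (1.27% of all genes). Mmp9, a matrix protease, was lower in KO cells by -1.45, -1.28 and -1.27 at 0, 6 and 24 h (SE 0.23). Between genotypes 1 of the 25 was higher at each time, and 1, 1 and 4 were lower, with medians of 0.07, 0.29 and 0.27, or 0.22 at 6 h and 0.01 at 24 h without the 2 later-slide arrays. Without the 2 later-slide arrays 12 rose and 3 fell in control cells at 6 h, and 10 rose and 0 fell at 24 h.

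Of 25 measured textbook PU.1 targets 3 were higher and 0 lower in unstimulated KO cells, 3 higher and 1 lower at 6 h, and 8 higher and 0 lower at 24 h, with medians of 0.38, 0.42 and 0.51. The LPS co-receptor Cd14 was higher by 1.85 without stimulus and 1.83 at 24 h (SE 0.62), the oxidase subunit Cybb by 1.17 and 1.28 (SE 0.34), and the receptor Tlr2 by 1.90 at 6 h and 1.81 at 24 h (SE 0.32). Without the 2 later-slide arrays the Cd14 difference at 24 h was 0.998 and that of Cybb 0.87, and 7 targets were higher in unstimulated cells and 6 at 6 h. Several of these genes are markers of macrophages as well, and Spi1 itself did not pass the test in any of the 12 comparisons. The part of cell content or of the Spi1 level in the target differences was not tested. Irf8, the close relative of IRF4 with the same partners, differed between KO and control by 0.24, 0.03 and -0.41 (SE 0.28; adjusted p 0.612, 0.96 and 0.365), and by -0.35 at 6 h and -0.48 at 24 h with the 2 later-slide arrays left out (adjusted p 0.266 and 0.103).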

How the data were processed

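Members and lists were chosen with earlier results of these data known. Each array had 1 scanner file of spot intensity values deposited as scanned (by Agilent's Feature Extraction, version 10.7.3.1 per the file headers), with a log10 ratio of Cy5 over Cy3 by that software. A deposited table of log2 ratios (the submitters' processing notes name limma) correlated at 0.999885 to 0.999998 with the ratios used here and served as an alternative.

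Intensities were background corrected (normexp, offset 50, with non-uniform backgrounds set to the array's median) and loess normalised within arrays in limma 3.58.1 (R 4.3.3), where the 1639 control spots had no weight. Accessions named 22951 of 41174 probes (16358 genes), and 11263 genes had a probe well above background on all 5 arrays of a group. The brightest Cy5 probe stood for a gene. One mean per group was fitted to all 30 arrays (24 residual degrees of freedom), and genes were called at a Benjamini-Hochberg adjusted p under 0.05 over all genes. In data simulated for the unstimulated KO comparison (11238 genes), 69% of 100 changes of 1 log2 unit and 97% of 100 changes of 2 were called. The simulated noise held no slides or replicate sets, and these rates average over genes of unlike spread. Replicate arrays differed 1.19 to 9.15 times as much as repeated spots (60 pairs). Named genes were the members, Irf4 and Irf8, up to 3 called genes per list and comparison, the 3 genes most like a member, with markers of cell types added. Motifs were chosen with the promoters in view. Alternatives were Agilent's ratios, the deposited table, backgrounds as scanned, median centring without loess, Cy5 alone (quantile normalised), other probe rules and filters, an intensity trend, only the compared arrays, slide and replicate blocks, and arrays left out. The bZIP list holds 1 gene that is counted but not reported here by name.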

Additional observations from a re-analysis of the deposited data

Results flagged for a closer look

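In 3 of 60 sets of a member and a group 1 array stood apart from the other 4 by Dixon's test, where chance gives about 1 in 20. Jun on KO 6 h replicate 4 was -1.63, against -0.67 to -0.29 on the others. Spi1 on unstimulated control replicate 5 was 0.88, against 1.66 to 1.97. Spib on control 24 h replicate 2, one of the 2 arrays of the later slide, was 2.08, against -0.09 to 0.30. Of 30 differences between the genotypes' LPS responses (10 members, at 6 h, at 24 h and in the change from 6 to 24 h) 0 passed the test on all arrays.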

How the results depend on the processing

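On the main settings 3 member differences were called between genotypes, 3 in the LPS response of control cells, 7 in that of KO cells, and 0 between 24 and 6 h or in the genotypes' responses. Over settings other than a fixed slide term or 1 array left out, the 13 calls gave 194 values, of which 181 stayed called in the same direction, 13 lost the call and 0 turned. Here and below a difference turned where its sign changed and it was called on the main or the other setting. Changes of sign without such a call are not listed. With 1 array left out, 363 of 390 stayed and 27 lost the call. The control count then ran from 1 (without unstimulated replicate 1 or 5, or 6 h replicate 1 or 2) to 5 (without 24 h replicate 2), and that for the genotypes' responses from 0 to 2. Fitted on the compared arrays only, the control LPS count was 0.

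With the replicate number as a block, 5 differences were called between genotypes. The numbers were not taken to pair the samples, since not every same-number correlation of deviations was over 0.1 (lowest -0.335). For numbers 1 to 5, 12, 12, 10, 11 and 15 of 15 pairs were over 0.1, and 20 of 30 arrays correlated best with their own number, a hint from the data and not from the design. Without the 2 later-slide arrays the control LPS count was 5 and that for the genotypes' responses 2. Without them and with the replicate block the 5 counts were 8, 8, 12, 3 and 2 (chosen after seeing the data, as were the next 2). A term for replicates 4 and 5 gave 6 between genotypes. That term with the slide gave 1, 8, 2, 1 and 0, and turned Spib at 0 h to 0.49 and Batf3 at 6 h to 0.22 (KO minus control, neither called).

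The slide as a fixed block links genotypes only through chains of slides. It gave 19 calls between genotypes, 7 for control LPS, 9 for 24 against 6 h and 15 for the genotypes' responses. Of the 13 calls 6 held, 6 were lost and 1 turned. KO minus control turned at 0 h for Batf2 (3.36) and Jund (3.43), and at 24 h for Batf2 (-3.72), Fos (-1.69), Fosl2 (-2.87) and Jun (-2.18). LPS at 24 h turned for Jun in control (1.77) and for Batf2 (-2.89) and Junb (-3.86) in KO cells. From 6 to 24 h in KO cells Batf (2.84), Fos (-2.10) and Jun (-3.72) turned. Differences of responses turned for Batf2 at 24 h (-7.08) and Spi1 from 6 to 24 h (-2.44). The cause was not tested. As a random block the slide had a correlation of 0.103 and the 5 counts were 3, 3, 7, 0 and 0. Signal over background limits Spib most, above it on 26 of 30 arrays.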
